A study of Mus musculus with 18 samples.

Results

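Killer lectin-like receptors are C-type lectin-like proteins first described on natural killer (NK) cells, several of which are also carried by cytotoxic T cells. Described here are 10 genes of this family, chosen by symbol, in tumor-infiltrating CD3+ T cells (TILs): Klrd1, Klrc1, Klrc2, Klrk1, Klre1, Klrg1, Klrb1c, Klra3, Klra7 and Klra9. They were 10 of 37236 genes in the expression table and 10 of its 26 rows whose symbol begins with Klr. All 10 averaged 10 normalized counts or more across the 18 samples, as did 11992 genes in all, and were tested.

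The TILs came from subcutaneous B16-OVA tumors, a mouse melanoma line that makes ovalbumin, harvested on d14 from C57BL/6 mice that were young adults when the tumor cells were injected. Wild-type Nr2f6+/+ or Nr2f6-/- mice were given an antibody against PD-L1 (aPDL1) or the IgG2b isotype control. The groups were Nr2f6+/+ IgG2b (n = 3), Nr2f6-/- IgG2b (n = 3), Nr2f6+/+ aPDL1 (n = 6) and Nr2f6-/- aPDL1 (n = 6). Nr2f6 codes for an orphan nuclear receptor that acts as a transcriptional repressor in T cells, and PD-L1 is the ligand of the inhibitory receptor PD-1. All groups received the tumor and an antibody; none was untreated. The mice lacked Nr2f6 in every cell, so the T cells and the rest of the host cannot be told apart as the site of an effect. CD4 and CD8 T cells were bound to beads, pooled and sorted for CD3. Nr2f6 read 20.2 to 201 normalized counts in the 9 wild-type samples and 0 in the 9 Nr2f6-/- samples, as labelled.

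The best known of these receptors are pairs of chains: CD94 (Klrd1) joins NKG2A (Klrc1), which inhibits, or NKG2C (Klrc2), which activates, and either pair binds the class Ib molecule Qa-1 (H2-T23). NKG2D (Klrk1) is an activating receptor for stress-induced ligands and signals through DAP10 (Hcst). KLRE1 pairs with KLRI1 or KLRI2, KLRG1 is an inhibitory receptor for cadherins, NK1.1 (Klrb1c) marks NK and NKT cells, and the Ly49 receptors (Klra3, Klra7 and Klra9) bind classical MHC class I. On CD8 T cells in tumors CD94/NKG2A is known as an inhibitory checkpoint, NKG2D as a co-stimulator and KLRG1 as a mark of terminal effector cells.

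The 10 genes lie on chromosome 6 (GRCm38), within the 8.07 Mb from Klrg1 (chr6:122270596-122282882, minus strand) to Klra3 (chr6:130323289-130337574, minus strand). The CD94/NKG2 genes lie in one stretch, with Klrc3 between Klrk1 and Klrc2: Klre1 (chr6:129577905-129585827, plus), Klrd1 (chr6:129591782-129598775, plus), Klrk1 (chr6:129610323-129623864, minus), Klrc2 (chr6:129647496-129660689, minus) and Klrc1 (chr6:129666015-129678973, minus). Klrb1c (chr6:128778485-128789215, minus), Klra9 (chr6:130178675-130193112, minus) and Klra7 (chr6:130218605-130233322, minus) complete the set. RefSeq promoters (GRCm38.p6; 250 bases before to 50 after a transcript start) were matched for 8 members, as 11 promoters; no entry was matched for Klrd1 and Klrg1. Shown first are the promoters of Klrc1 and Klrk1, the members whose groups differed past the threshold below, with those of their neighbours Klrc2 and Klre1. They are written 5′ to 3′ on the gene's strand, and capitals mark TGTGGT, the core bound by RUNX factors (ACCACA where it lies on the other strand), and the AP-1 motif TGANTCA.
Klrc1 promoter, chr6:129678924-129679223, minus strand: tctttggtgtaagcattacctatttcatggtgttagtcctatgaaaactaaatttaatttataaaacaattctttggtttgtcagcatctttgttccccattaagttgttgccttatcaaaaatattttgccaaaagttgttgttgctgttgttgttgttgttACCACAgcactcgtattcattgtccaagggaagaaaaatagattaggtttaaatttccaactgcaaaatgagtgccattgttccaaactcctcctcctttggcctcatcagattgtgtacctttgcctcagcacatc
Klrk1 promoter, chr6:129623815-129624114, minus strand: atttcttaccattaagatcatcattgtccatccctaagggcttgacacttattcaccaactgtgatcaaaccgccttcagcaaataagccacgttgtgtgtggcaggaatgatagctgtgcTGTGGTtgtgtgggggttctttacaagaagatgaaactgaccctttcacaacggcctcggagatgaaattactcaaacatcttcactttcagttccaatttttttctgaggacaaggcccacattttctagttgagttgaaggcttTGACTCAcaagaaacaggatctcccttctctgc
Klrc2 promoter, chr6:129660507-129660806, minus strand: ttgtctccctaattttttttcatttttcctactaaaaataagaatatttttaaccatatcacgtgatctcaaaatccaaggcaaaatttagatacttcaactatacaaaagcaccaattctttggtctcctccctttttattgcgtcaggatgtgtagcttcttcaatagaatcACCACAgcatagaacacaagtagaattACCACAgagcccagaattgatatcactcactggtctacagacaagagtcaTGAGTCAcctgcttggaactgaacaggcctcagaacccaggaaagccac
Klre1 promoter, chr6:129577963-129578262, plus strand: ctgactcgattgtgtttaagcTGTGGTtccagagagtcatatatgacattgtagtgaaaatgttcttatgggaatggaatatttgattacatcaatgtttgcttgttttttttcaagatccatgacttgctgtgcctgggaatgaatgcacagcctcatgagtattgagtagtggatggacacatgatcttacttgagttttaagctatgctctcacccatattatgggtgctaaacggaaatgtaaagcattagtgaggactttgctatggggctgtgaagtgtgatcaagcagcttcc

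The RUNX core TGTGGT, searched on both strands, was in 6 of the 11 promoters, those of Klrb1c, Klrc1, Klrc2, Klre1 and Klrk1, and in 16.8% of all 32851 RefSeq promoters of the same length. The AP-1 motif TGANTCA was in 3 of 11, from Klrc2 and Klrk1, against 7.81% of all promoters. AGGTCA, the core recognized by nuclear receptors, the class of NR2F6, was in 1 of 11, that of Klrb1c at positions 1 to 6 counted from the first transcribed base, against 16.3% of all promoters. AGGTGT, the T-box core, was in 0 of 11 and in 13.7% of all promoters. Matches of different motifs did not overlap in these promoters, though TGTGGT and AGGTGT share letters, and the 2 promoters given for Klrc2, and those for Klre1, overlap in sequence. A match describes these letters and not a bound site.

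The Ly49 promoters of Klra3 and Klra9 are shown because the genes are near copies. Here capitals mark the bases not matched in the other promoter, 29 in each, and 271 of 300 bases (90.3%) were identical in the alignment.
Klra3 promoter, chr6:130337577-130337876, minus strand: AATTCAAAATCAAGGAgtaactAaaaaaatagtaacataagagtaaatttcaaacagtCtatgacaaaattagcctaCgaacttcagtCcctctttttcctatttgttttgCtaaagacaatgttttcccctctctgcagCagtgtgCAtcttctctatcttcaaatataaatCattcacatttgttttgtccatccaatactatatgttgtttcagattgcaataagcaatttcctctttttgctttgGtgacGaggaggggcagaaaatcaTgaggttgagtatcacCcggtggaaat
Klra9 promoter, chr6:130193063-130193362, minus strand: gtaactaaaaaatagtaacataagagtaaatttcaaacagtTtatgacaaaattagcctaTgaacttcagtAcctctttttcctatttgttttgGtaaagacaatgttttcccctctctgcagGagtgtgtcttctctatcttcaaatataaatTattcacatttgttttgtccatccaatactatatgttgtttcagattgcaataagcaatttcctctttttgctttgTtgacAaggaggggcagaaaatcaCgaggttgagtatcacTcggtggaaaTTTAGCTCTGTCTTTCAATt

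The likeness of the coding genes bears on the values, because the libraries read 1 tag near the 3′ end of each transcript. Of the 50-base words in the last 300 bases of the annotated coding transcripts, Klrc1 shared 60.9% and Klrc2 20.1% with other genes, mainly each other and Klrc3. Klra9 shared 49.0%, Klra3 39% and Klra7 27.0%, with Ly49 genes and pseudogenes, and Klrb1c 11.6%. Since 1 primary alignment was kept for reads with several, the split of reads between these genes is uncertain. Klrd1, Klrk1, Klre1 and Klrg1 shared 0%.

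Values are read counts per gene divided by a size factor for each library (normalized counts). They are not divided by gene length, since each transcript gives 1 tag. Reads on genes ran from 12473391 to 18609482 per sample (median 16554699), and 3 reads, taken as the floor for a gene at 0, stood for 2.46 to 3.64 normalized counts; floors cover counting error only. Samples of a group correlated with r = 0.768 to 0.863 on the log2 scale. Replicates 1 to 3 of each group form a first set of libraries by their library numbers, and replicates 4 to 6, which exist only for the aPDL1 groups, a second. Cd3e, a chain of the T-cell receptor complex, read 7381 to 15541 in every sample, and Cd8a and Cd4 were both present. Cd8a ranged from 8102 to 8327 in Nr2f6+/+ IgG2b, 8129 to 12597 in Nr2f6-/- IgG2b, 5361 to 13579 in Nr2f6+/+ aPDL1 and 11329 to 17119 in Nr2f6-/- aPDL1. Macrophage markers (14 genes) summed to 16038 to 20657, 9545 to 13234, 1683 to 6675 and 920 to 2627 in the same order. Nr2f6+/+ aPDL1 replicate 5 stood apart, with the lowest Cd8a, Klrc1, Klrd1 and Klre1 and the highest Klrb1c of all aPDL1 samples. In such bulk samples, fewer cells of a type and less RNA per cell cannot be told apart.

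Together the 10 receptors gave 10210 to 35418 normalized counts per sample, with a median of 20076. Klrc1 made up 48.2 to 68.5% of this sum, Klrd1 14.5 to 31.7% and Klrk1 6.71 to 13.3%. Klre1 gave 0.601 to 8.76% and Klrg1 0.342 to 11.6%. The NKG2A, CD94 and NKG2D transcripts were thus the main ones by tag count, while Klrc2, Klrb1c and the Ly49 genes each stayed under 3% in every sample. The sum was 10210 to 17583 in Nr2f6+/+ IgG2b, 16226 to 21439 in Nr2f6-/- IgG2b, 10256 to 28840 in Nr2f6+/+ aPDL1 and 22674 to 35418 in Nr2f6-/- aPDL1.

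**Figure D1:**
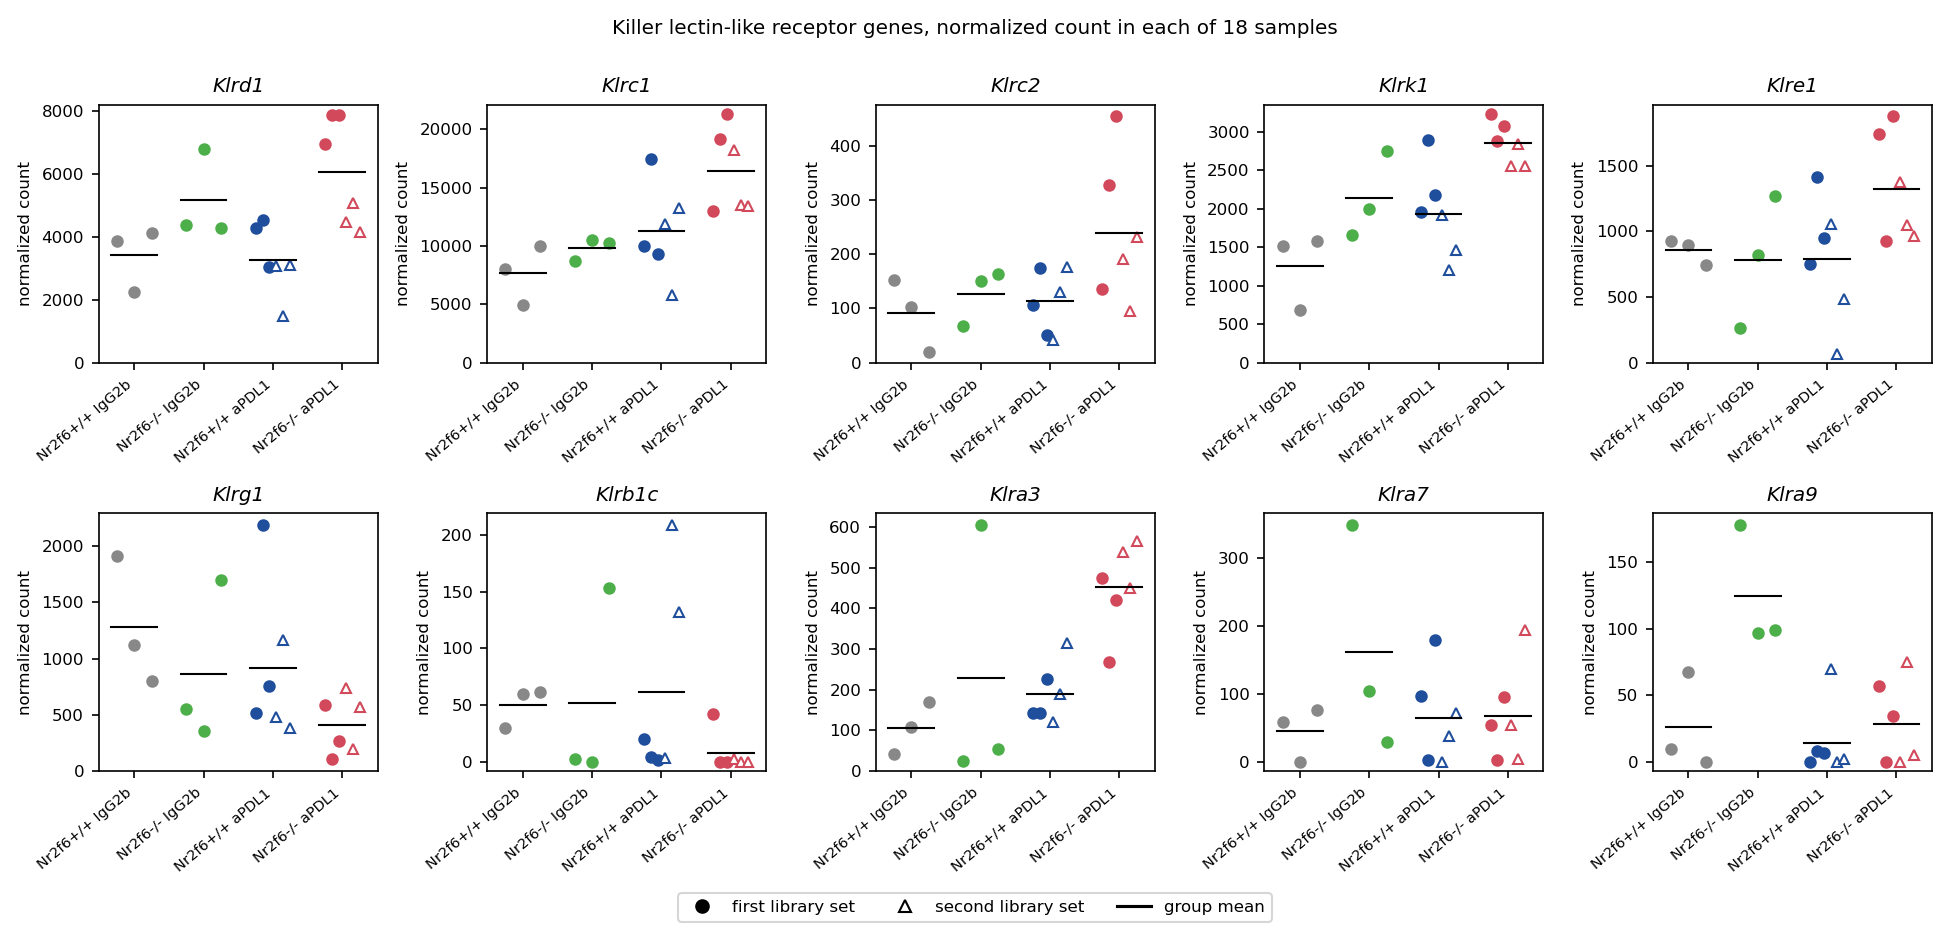
Normalized counts (linear axes, a panel per gene) of the 10 receptor genes in each of the 18 samples, by group. Circles are the first and triangles the second library set, and lines are group means. Klrk1 of Nr2f6-/- aPDL1 samples is tightly grouped at 2553 to 3230, while Klrb1c, Klra7 and Klra9 scatter down to 0 within groups.

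Klrd1, the CD94 chain, read 3860, 2252 and 4133 normalized counts in the Nr2f6+/+ IgG2b samples and 4390, 6797 and 4297 in the Nr2f6-/- IgG2b samples. Under aPDL1 it read 1488 to 4541 (median 3081) in wild-type and 4150 to 7892 (median 6029) in Nr2f6-/- TILs. Thus all Nr2f6-/- aPDL1 samples but 2, replicates 4 and 6, lay above the highest wild-type sample, and the 2 aPDL1 groups overlapped. The mean was 3253 ± 1089 (SD, n = 6) against 6077 ± 1710 (SD, n = 6), a log2 difference of 0.94 (SE 0.23) on the scale of log2(normalized count + 1). It did not pass the threshold of 0.05 by limma (Benjamini-Hochberg adjusted p = 0.0829 over all 11992 genes), with a 95% confidence interval of the log2 difference from 0.46 to 1.41. The call depended on the fit: DESeq2 on the recovered reads gave an adjusted p of 0.0134, limma with the library set as a covariate 0.0218, and edgeR 0.134. Nr2f6-/- aPDL1 exceeded Nr2f6+/+ IgG2b by 0.83 (SE 0.28, adjusted p = 0.225, limma) with no overlap of the samples. All IgG2b samples belong to the first of 2 library sets, and with the set as a covariate this difference was 1.19 (adjusted p = 0.0178), within the first set alone 1.20 (adjusted p = 0.0456). In the IgG2b groups the log2 difference between genotypes was 0.61 (SE 0.33, adjusted p = 0.937).

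Klrc1, coding for the inhibitory NKG2A chain, read 8015, 4923 and 10005 normalized counts in Nr2f6+/+ IgG2b and 8744, 10506 and 10225 in Nr2f6-/- IgG2b samples. With aPDL1 it read 5769 to 17466 (median 10957) in wild-type and 12995 to 21295 (median 15876) in Nr2f6-/- TILs. Every Nr2f6-/- aPDL1 sample was above all IgG2b samples of either genotype. From Nr2f6+/+ IgG2b (7647 ± 2561, SD, n = 3) to Nr2f6-/- aPDL1 (16435 ± 3563, SD, n = 6) Klrc1 rose by 1.14 on the log2 scale (SE 0.25, limma adjusted p = 0.028), or 2.20-fold. Deletion of Nr2f6 or aPDL1 alone gave 0.42 (SE 0.29, adjusted p = 0.989) and 0.54 (SE 0.25, adjusted p = 0.642), neither past the threshold. Within aPDL1-treated mice the genotypes differed by 0.59 (SE 0.20, adjusted p = 0.315), and within Nr2f6-/- mice aPDL1 gave 0.72 (SE 0.25, adjusted p = 0.284).

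Klrc2, the activating NKG2C chain, was far lower, at 19.1 to 152 normalized counts in Nr2f6+/+ IgG2b, 67.5 to 163 in Nr2f6-/- IgG2b, 41.8 to 176 in Nr2f6+/+ aPDL1 and 95.4 to 456 in Nr2f6-/- aPDL1. Its groups overlapped in all 6 comparisons of groups. The largest difference, 1.63 (SE 0.83) between Nr2f6-/- aPDL1 and Nr2f6+/+ IgG2b, had an adjusted p of 0.579 (limma). Klrc1 exceeded Klrc2 by 43.9 to 525 times within a sample, and this ratio of the inhibitory to the activating partner of CD94 did not differ between groups in any of 6 comparisons (exact two-sided permutation test over samples, p = 0.32 to 1, adjusted p = 1 in all; 3 against 3 samples cannot go below 0.10).

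Klrk1, coding for NKG2D, followed a similar order. It read 1514, 685 and 1581 normalized counts in Nr2f6+/+ IgG2b and 1662, 2004 and 2755 in Nr2f6-/- IgG2b, each sample of the latter above each of the former. With aPDL1 it read 1201 to 2896 (median 1940) in wild-type and 2553 to 3230 (median 2863) in Nr2f6-/- TILs. The Nr2f6-/- aPDL1 samples were close to each other (2858 ± 273, SD, n = 6) and lay above all Nr2f6+/+ IgG2b samples (1260 ± 499, SD, n = 3), a rise of 1.27 on the log2 scale (SE 0.27, limma adjusted p = 0.0191), or 2.41-fold. Deletion alone gave 0.83 (SE 0.31, adjusted p = 0.861), aPDL1 alone 0.66 (SE 0.27, adjusted p = 0.575), and deletion within aPDL1-treated mice 0.61 (SE 0.22, adjusted p = 0.347).

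Both calls rested on Nr2f6+/+ IgG2b replicate 2, which had the lowest Klrk1, Klrc1 and Klrd1 of its group. Without it the log2 differences between Nr2f6-/- aPDL1 and Nr2f6+/+ IgG2b were 0.88 for Klrk1 (adjusted p = 0.357) and 0.85 for Klrc1 (adjusted p = 0.359). Klrc1 alone also lost its call without Nr2f6+/+ IgG2b replicate 1 (1.20, adjusted p = 0.0951) or without Nr2f6-/- aPDL1 replicate 2 (1.09, 0.055), 3 (1.06, 0.0608) or 4 (1.10, 0.0504). DESeq2 called both genes (adjusted p = 0.00323 for Klrk1 and 0.0018 for Klrc1) and edgeR neither (0.0602 and 0.0656). Between the same groups the 14 macrophage markers were all lower in Nr2f6-/- aPDL1, 5 of them past the threshold. Of 6 platelet markers listed 2 were tested, and both were called lower (median log2 difference -7.78). The platelet list summed to 2300 to 2611 in Nr2f6+/+ IgG2b and to at most 703 in any other group. Of 7 melanocyte markers listed 6 were tested, and all were lower with 0 called (median -1.87). T cell markers were higher in 13 of 14 with 0 called (median 0.51). The part of these cells in the differences of Klrk1 and Klrc1 was not tested.

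Klre1 read 926, 894 and 740 normalized counts in Nr2f6+/+ IgG2b and 262, 819 and 1270 in Nr2f6-/- IgG2b. Under aPDL1 it spread from 61.6 to 1416 (median 852) in wild-type and from 924 to 1875 (median 1209) in Nr2f6-/- TILs. The value of 61.6 was that of replicate 5, so that 1 low sample widened the wild-type group, and all comparisons overlapped. The log2 difference between genotypes under aPDL1 was 1.17 (SE 0.49, limma adjusted p = 0.42). The effect of aPDL1 differed between genotypes by 1.56 (SE 0.85, adjusted p = 0.974), the smallest unadjusted p of the members for this difference (0.0772).

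Klri2 is no member but codes for a partner chain of KLRE1, and among the other Klr genes it was the one past the threshold. It read 39.5, 2.08 and 56.4 normalized counts in Nr2f6+/+ IgG2b, 14.3, 263 and 307 in Nr2f6-/- IgG2b, 59.5 to 325 (median 175) in Nr2f6+/+ aPDL1 and 217 to 939 (median 343) in Nr2f6-/- aPDL1. All aPDL1 samples lay above all Nr2f6+/+ IgG2b samples. It rose by 4.27 on the log2 scale from Nr2f6+/+ IgG2b to Nr2f6-/- aPDL1 (SE 0.97, adjusted p = 0.0337, limma), and differed by 1.31 (SE 0.79, adjusted p = 0.626) between the genotypes under aPDL1. Nr2f6+/+ IgG2b replicate 2 (2.08) was under its floor of 3.13 normalized counts and weighs strongly in the rise of 4.27. Other pseudocounts were not tried for Klri2. Klri1, coding for the alternative partner, read 0 in all 18 samples.

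Klrg1, the inhibitory cadherin receptor, was the abundant member with the opposite order. It read 1913, 1119 and 798 normalized counts in Nr2f6+/+ IgG2b, 549, 355 and 1697 in Nr2f6-/- IgG2b, 379 to 2189 (median 637) in Nr2f6+/+ aPDL1 and 108 to 740 (median 421) in Nr2f6-/- aPDL1. All Nr2f6-/- aPDL1 samples lay below all Nr2f6+/+ IgG2b samples, while the aPDL1 groups overlapped. The log2 differences were -1.83 (SE 0.57, limma adjusted p = 0.166) between these groups without overlap and -1.16 (SE 0.46, adjusted p = 0.386) between the genotypes under aPDL1.

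Klrb1c, coding for NK1.1, was low: 29.9, 59.4 and 61.4 normalized counts in Nr2f6+/+ IgG2b, 1.90, 0 and 153 in Nr2f6-/- IgG2b and 1.05 to 209 (median 12) in Nr2f6+/+ aPDL1. In Nr2f6-/- aPDL1 it was at 0 in 4 of 6 samples, 2.0 in another and 41.8 in replicate 1. Replicates 5 and 6 of Nr2f6+/+ aPDL1 (209 and 132) held most of the counts of that group. The log2 difference between Nr2f6-/- aPDL1 and Nr2f6+/+ IgG2b was -4.44 (SE 1.77, limma adjusted p = 0.36) and that between the aPDL1 groups -2.91 (SE 1.45, adjusted p = 0.519); samples overlapped in both. Fitted differences of a gene with samples at 0 depend on the pseudocount. Klrb1c overlaps Gm44511 on the same strand.

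Of the inhibitory Ly49 genes, Klra3 (Ly49C) was the most abundant. It read 41.3, 107 and 169 normalized counts in Nr2f6+/+ IgG2b, 23.8, 605 and 55.2 in Nr2f6-/- IgG2b, 121 to 315 (median 166) in Nr2f6+/+ aPDL1 and 269 to 565 (median 462) in Nr2f6-/- aPDL1. All Nr2f6-/- aPDL1 samples lay above all Nr2f6+/+ IgG2b samples and 5 of 6 above every Nr2f6+/+ aPDL1 sample. The log2 difference was 2.26 (SE 0.74, limma adjusted p = 0.202) from Nr2f6+/+ IgG2b, 2.23 (SE 0.74, adjusted p = 0.265) from Nr2f6-/- IgG2b and 1.29 (SE 0.61, adjusted p = 0.492) from Nr2f6+/+ aPDL1. Without Nr2f6-/- IgG2b replicate 2 (605) the second of these was 3.57 and past the threshold (adjusted p = 0.0399), and without replicate 1 (23.8) it was 1.26 (adjusted p = 0.738). DESeq2 gave 0.99 for it (adjusted p = 0.659), and edgeR an adjusted p of 0.731.

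Klra7 (Ly49G) read 0 to 75.5 normalized counts in Nr2f6+/+ IgG2b, 29.1 to 348 in Nr2f6-/- IgG2b, 0 to 179 in Nr2f6+/+ aPDL1 and 2.60 to 193 in Nr2f6-/- aPDL1, and its groups overlapped throughout. Klra9 (Ly49I) read 9.66, 67.7 and 0 in Nr2f6+/+ IgG2b, 178, 97.1 and 98.9 in Nr2f6-/- IgG2b, 0 to 69.6 (median 3.99) in Nr2f6+/+ aPDL1 and 0 to 74.7 (median 19.5) in Nr2f6-/- aPDL1. The Nr2f6-/- IgG2b samples were thus above every sample of the other 3 groups. The log2 differences of that group were 3.74 (SE 2.01, limma adjusted p = 0.937) from Nr2f6+/+ IgG2b and 4.64 (SE 1.74, adjusted p = 0.278) from Nr2f6+/+ aPDL1, while Nr2f6-/- aPDL1 differed from it by -3.61 (SE 1.74, adjusted p = 0.504). None passed the threshold, and 4 samples of the aPDL1 groups were at 0.

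Counted over the comparisons, which share groups with each other, limma called 2 of 10 members, Klrk1 and Klrc1, between Nr2f6-/- aPDL1 and Nr2f6+/+ IgG2b, where 0.617% of all tested genes were called. In the other comparisons it called 0 members. The share of all genes called was 0.175% for genotype under aPDL1, 0% for genotype under IgG2b, 0.242% for aPDL1 in wild-type, 0.325% for aPDL1 in Nr2f6-/- mice, 0.459% for Nr2f6-/- IgG2b against Nr2f6+/+ aPDL1 and 0% for the difference of the aPDL1 effect between genotypes. At an unadjusted p under 0.05 the members numbered 6 for genotype under aPDL1 (9.73% of all genes), 1 for genotype under IgG2b (5.35%), 2 for aPDL1 in wild-type (7.24%), 3 for aPDL1 in Nr2f6-/- mice (9.70%), 6 for Nr2f6-/- aPDL1 against Nr2f6+/+ IgG2b (9.04%), 2 for Nr2f6-/- IgG2b against Nr2f6+/+ aPDL1 (11.2%) and 0 for the difference of effects (4.97%). DESeq2 called 1 member, Klrd1, for genotype under aPDL1, the same 2 as limma between Nr2f6-/- aPDL1 and Nr2f6+/+ IgG2b, and 0 elsewhere, and edgeR called 0 in all 7. In these comparisons DESeq2 called 184 and 177 of the 11992 genes, where limma called 21 and 74 and edgeR 22 and 41.

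The members were also counted by direction, whether or not they passed the test. Under aPDL1, 8 members were higher and 2 lower in Nr2f6-/- TILs, with a median log2 difference of 0.77 against -0.0049 for all genes tested. Between Nr2f6-/- aPDL1 and Nr2f6+/+ IgG2b it was again 8 and 2, with a median of 0.90 against -0.12. For genotype under IgG2b 7 were higher and 3 lower (median 0.51 against -0.06), and for aPDL1 in wild-type 5 and 5 (0.19 against -0.10). Other lists leaned the same way: under aPDL1, 6 of 7 other Klr genes (median 1.31) and 13 of 14 T cell markers (median 0.29) were higher in Nr2f6-/- TILs, and between Nr2f6-/- aPDL1 and Nr2f6+/+ IgG2b both CD8 markers were (median 0.71). The members share chains, cells and partly reads, so these counts are a description. Between genotypes, samples of the groups did not overlap for 0 members under aPDL1 (0.592% of all genes). Under IgG2b they did not overlap for 3, Klrd1, Klrk1 and Klra9 (14.2%). With aPDL1 there was no overlap for 0 members in wild-type (4.54%) and for 2 in Nr2f6-/- mice, Klrc1 and Klra9 (5.12%). Between Nr2f6-/- aPDL1 and Nr2f6+/+ IgG2b these were 5, namely Klrd1, Klrc1, Klrk1, Klra3 and Klrg1 (6.17%). Between Nr2f6-/- IgG2b and Nr2f6+/+ aPDL1 it was 1, Klra9 (5.36%).

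**Figure D2:**
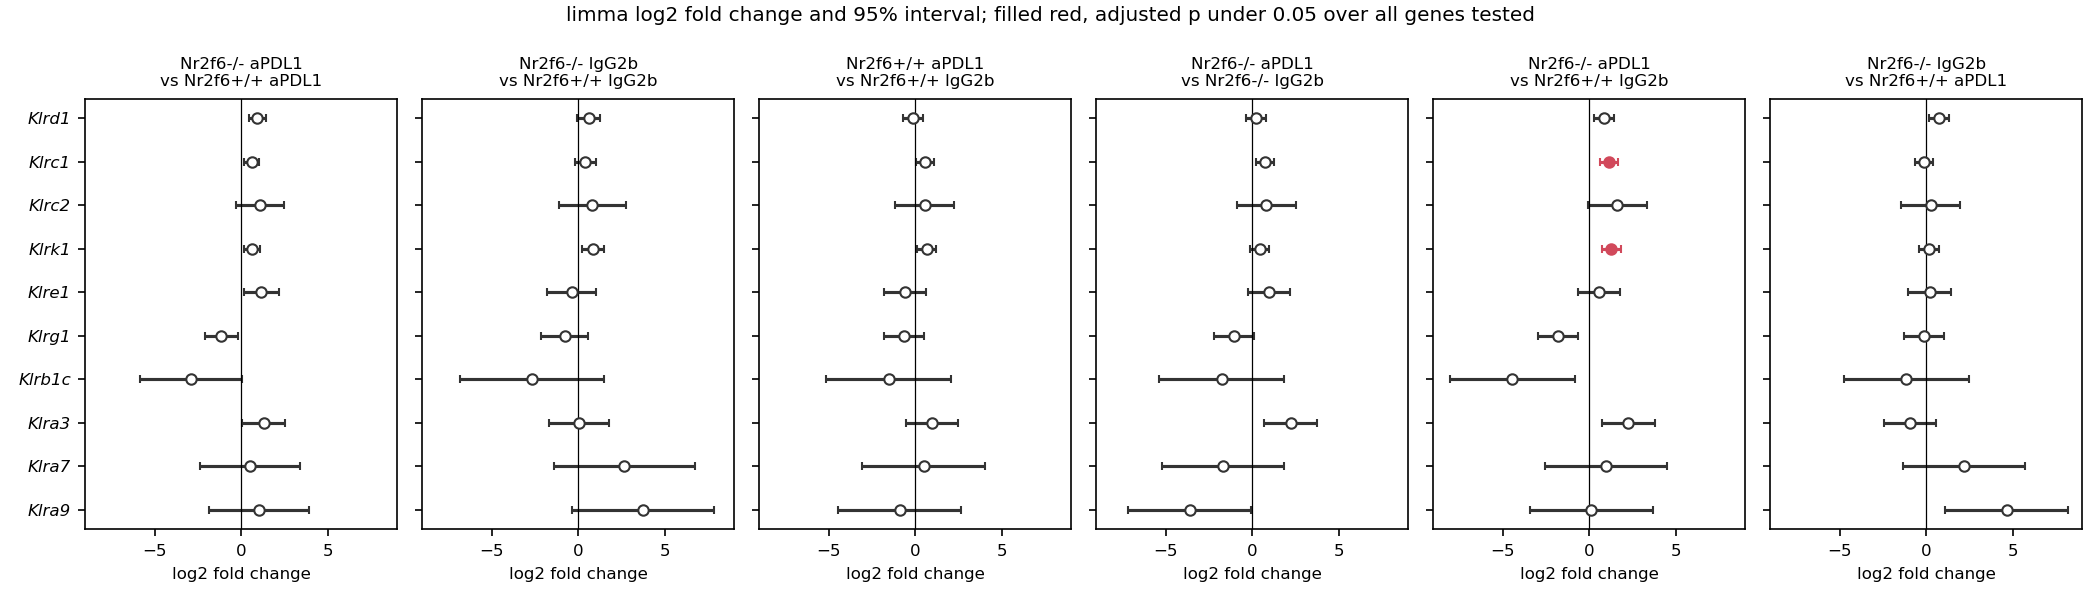
Log2 differences of the 10 receptors in the comparisons of groups, from limma on log2(normalized count + 1), with 95% confidence intervals; filled points mark an adjusted p under 0.05. Klrk1 and Klrc1 are filled for Nr2f6-/- aPDL1 against Nr2f6+/+ IgG2b, and intervals of Klra7, Klra9 and Klrb1c are several times wider than those of Klrd1, Klrc1 and Klrk1.

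The aPDL1 groups were spread evenly over both library sets, so genotype could be compared within each. In the first set Klrd1 read 6968 to 7892 normalized counts in Nr2f6-/- and 3049 to 4541 in wild-type samples, and in the second 4150 to 5091 and 1488 to 3092. The level of both genotypes was lower in the second set, and within either set no Nr2f6-/- sample overlapped a wild-type sample (log2 differences 0.96 and 0.91). Klra3 did not overlap in either set, at 269 to 474 against 143 to 226 in the first and 451 to 565 against 121 to 315 in the second, but its mean was not lower in the second set (388 and 518 in Nr2f6-/-, 171 and 208 in wild-type). The members without overlap numbered 2 in the first set, where 13.4% of all genes had none, and 5 in the second (11.1%). These 2 members were the ones without overlap in both sets in the same direction, as were 1.31% of all genes. Klrk1 and Klrc1 were apart in the second set but not in the first (log2 differences 0.40 and 0.82 for Klrk1 and 0.57 and 0.62 for Klrc1 in the first and second set), and so was Klrb1c, lower in Nr2f6-/-, though its groups were parted only by 2.0 against 2.78 normalized counts, about the floor of 3 reads. Across groups, Klrd1 was lower in the second set by a log2 difference of -0.71 (SE 0.19, limma adjusted p = 0.0992), and 0 members passed the threshold for the set (0.292% of all genes did).

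**Figure D3:**
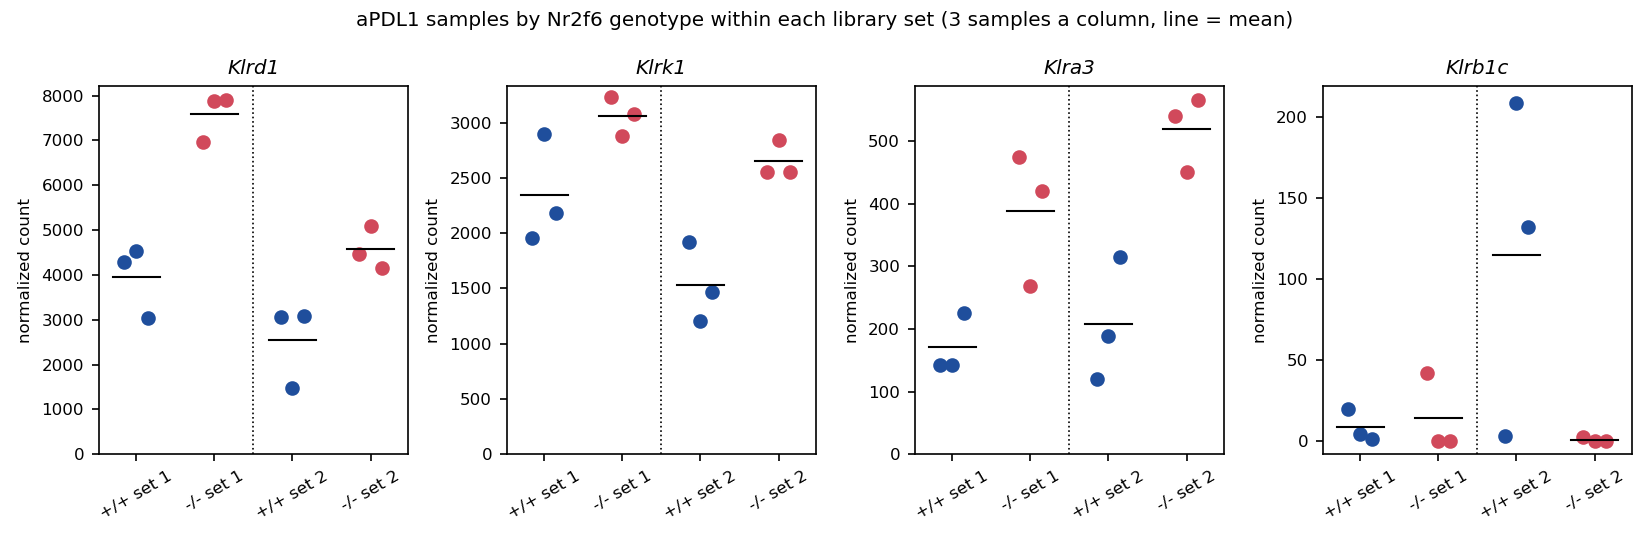
Normalized counts of Klrd1, Klrk1, Klra3 and Klrb1c in the aPDL1 samples, split by genotype and library set (3 samples each, lines are means). In both sets the Nr2f6-/- samples of Klrd1 and Klra3 lie above the wild-type samples.

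Because CD8 T cells carry most of these receptors, the members were also set against Cd8a. Cd8a itself was higher in Nr2f6-/- aPDL1 than in Nr2f6+/+ IgG2b by 0.67 (SE 0.22, limma adjusted p = 0.196) and than in Nr2f6+/+ aPDL1 by 0.54 (SE 0.18, adjusted p = 0.278) on the log2 scale. Relative to Cd8a, the log2 difference between Nr2f6-/- aPDL1 and Nr2f6+/+ IgG2b was 0.60 for Klrk1 (adjusted p = 0.237) and 0.47 for Klrc1 (adjusted p = 0.35), so neither call remained. Klrg1 was the 1 member called in that comparison, where 2.59% of all genes were, with a fall by 2.49 (SE 0.60, adjusted p = 0.022). Klrg1 itself differed by -1.83 there (limma adjusted p = 0.166), and within groups it did not rise with Cd8a (r = -0.12). As a share of Cd8a, Klrg1 was 15.6 ± 7.14% (SD, n = 3) in Nr2f6+/+ IgG2b, 8.63% in Nr2f6-/- IgG2b, 10.8% in Nr2f6+/+ aPDL1 and 3.29 ± 2.23% (SD, n = 6) in Nr2f6-/- aPDL1. The lowest Nr2f6+/+ IgG2b sample (9.85%) was above the highest Nr2f6-/- aPDL1 sample (6.37%). That call was lost without Nr2f6+/+ IgG2b replicate 1 (-2.15, adjusted p = 0.163), 2 (-2.56, 0.131) or 3 (-2.78, 0.0741) and without Nr2f6-/- aPDL1 replicate 5 (-2.27, 0.0564).

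Between the genotypes under aPDL1, 0 members were called relative to Cd8a (1.63% of all genes were), with Klrg1 at -1.70 (SE 0.49, adjusted p = 0.055), Klrd1 at 0.39 (SE 0.26, adjusted p = 0.356), Klrc1 at 0.05 and Klrk1 at 0.07. Klrg1 was called there without Nr2f6+/+ aPDL1 replicate 3 (-1.82, adjusted p = 0.0261) or 4 (-1.90, 0.0485) and without Nr2f6-/- aPDL1 replicate 4 (-1.96, 0.0326) or 6 (-1.89, 0.0365). Klrk1 stood at a mean of 15.5, 21.0, 21.3 and 22.1% of Cd8a in Nr2f6+/+ IgG2b, Nr2f6-/- IgG2b, Nr2f6+/+ aPDL1 and Nr2f6-/- aPDL1. Klrc1 stood at 93.8, 96.4, 126 and 129%, and Klrd1 at 41.9, 49.8, 35.9 and 47.1%, in the same order. The mean shares of Klrc1 and Klrk1 were thus close in the aPDL1 groups, while that of Klrg1 was lower in Nr2f6-/-. CD4 and other T cells also carry some of these receptors, so the ratio to Cd8a is not a level per CD8 cell.

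**Figure D4:**
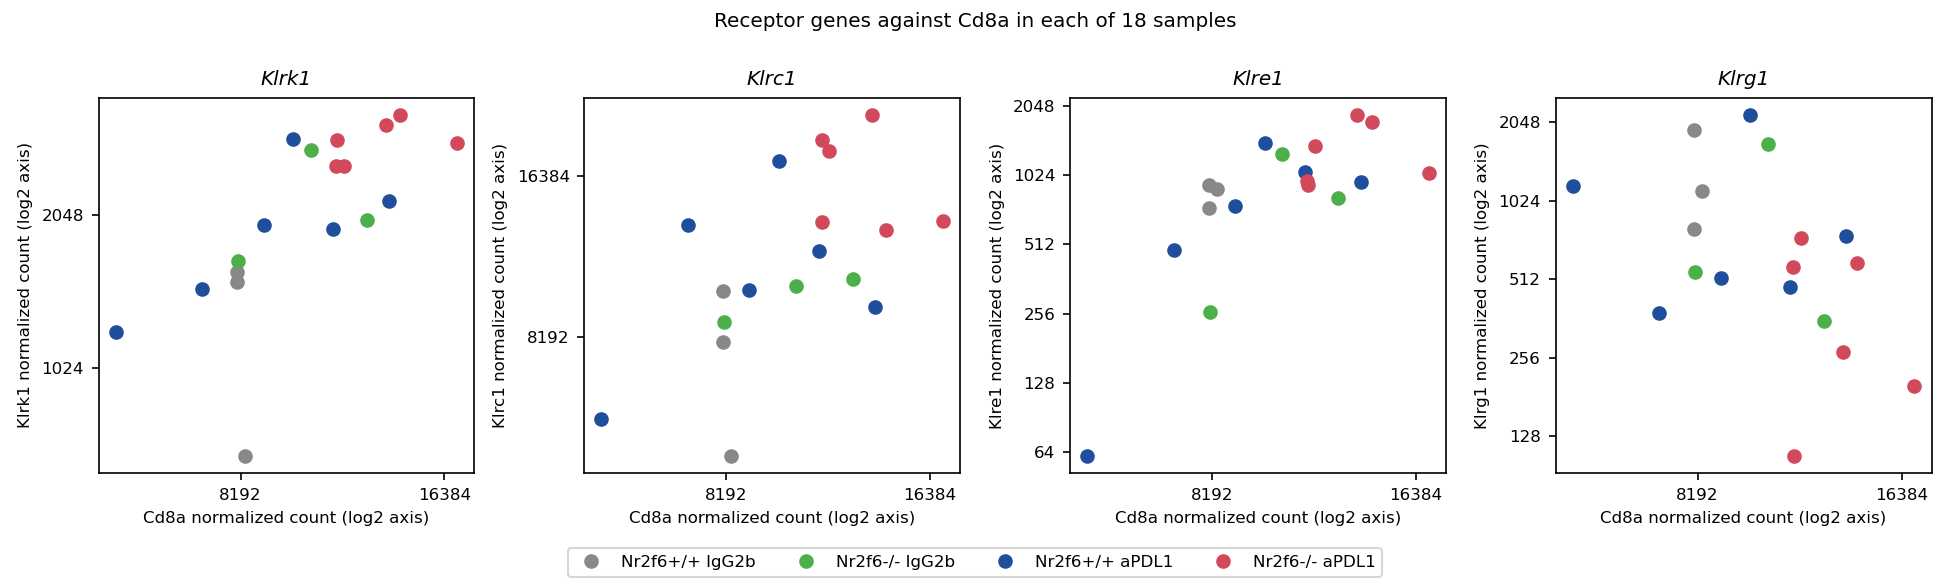
Normalized counts of Klrk1, Klrc1, Klre1 and Klrg1 against those of Cd8a (log2 axes) in the 18 samples, coloured by group. Klrg1 of the Nr2f6-/- aPDL1 samples lies low at high Cd8a, and the sample with the lowest Cd8a, Nr2f6+/+ aPDL1 replicate 5, has the lowest Klre1.

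How the members varied together was described over the 18 samples after the group means were removed. Klrd1 correlated with its partner Klrc1 (r = 0.75) and with Klrk1 (r = 0.69), and Klrc1 with Klrk1 (r = 0.68). Klre1 joined them with r = 0.63, 0.61 and 0.65, and also followed Cd8a (r = 0.76). Nr2f6+/+ aPDL1 replicate 5, with the lowest Klre1 (61.6) and the lowest Cd8a, weighed on these values of Klre1. They were not computed without that sample. The correlation with Cd8a was 0.54 for Klra9, 0.50 for Klrk1, 0.46 for Klrd1, 0.25 for Klrc1 and 0.23 for Klra3. It was -0.12 for Klrg1, -0.22 for Klra7, -0.35 for Klrc2 and -0.52 for Klrb1c. With Cd4, Klrg1 had r = 0.29. With Klrd1, Klrc1, Klrk1 and Klre1, Klrg1 had r between -0.30 and 0.25, and Klrc2 between -0.12 and 0.12. Klra3 and Klra9, the near copies, had r = -0.14. All points share library, depth and cell composition.

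In the same way, over the 18 samples and among 9638 genes with a mean of at least 50, the genes most like Klrd1 were Ugcg (r = 0.83), Cox17 (0.83) and Maea (0.82), followed by Arfip2 and Klhl21. For Klrc1 they were Cct5 (0.81), Cript (0.81), Megf9 (0.80), Serp2 and Asb6, and for Klrk1 Lrrcc1 (0.84), Chpf (0.82), Atf1 (0.79), Zswim1 and Spata5. Klre1 was most like Limd1 (0.88), Vcpip1 (0.88) and Cd38 (0.87), then Eri2 and Slc25a12, and Klrg1 like Vti1b (0.88), Trmt1 (0.84), Idnk, Stim1 and Zcchc7. For Klra3 the list was Aspm (0.82), Polrmt, Rabggta, Tpr and Aunip, for Klra7 Hnrnph3 (0.88), Ahctf1, Zfp52, Ncoa1 and C230085N15Rik, and for Klrc2 Bace2 (0.80), Pkm, Mir142hg, Synj2 and Il1r2. Klrb1c and Klra9 had means under 50, so they were not searched and could not be found, and among the 8 members searched none was in the 5 closest genes of another.

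Of the 16 other Klr rows, 7 had a mean of at least 10 normalized counts, and Klri2 was the 1 called, between Nr2f6-/- aPDL1 and Nr2f6+/+ IgG2b. The other 6 were Klra1, Klra2, Klra6, Klra17, Klrb1b and Klrb1f, the highest value of any sample being 458 normalized counts (Klra6). Between the genotypes under aPDL1, 6 of the 7 were higher in Nr2f6-/- and 1, Klra6, lower on the scale of log2(normalized count + 1), where samples at 0 weigh strongly. The mean normalized counts ran the other way for Klra6 (117 in Nr2f6-/- and 63.0 in wild-type) and for Klrb1f (24.3 and 36). Klrb1, Klrc3 and Klri1 were at 0 in all samples.

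**Figure D5:**
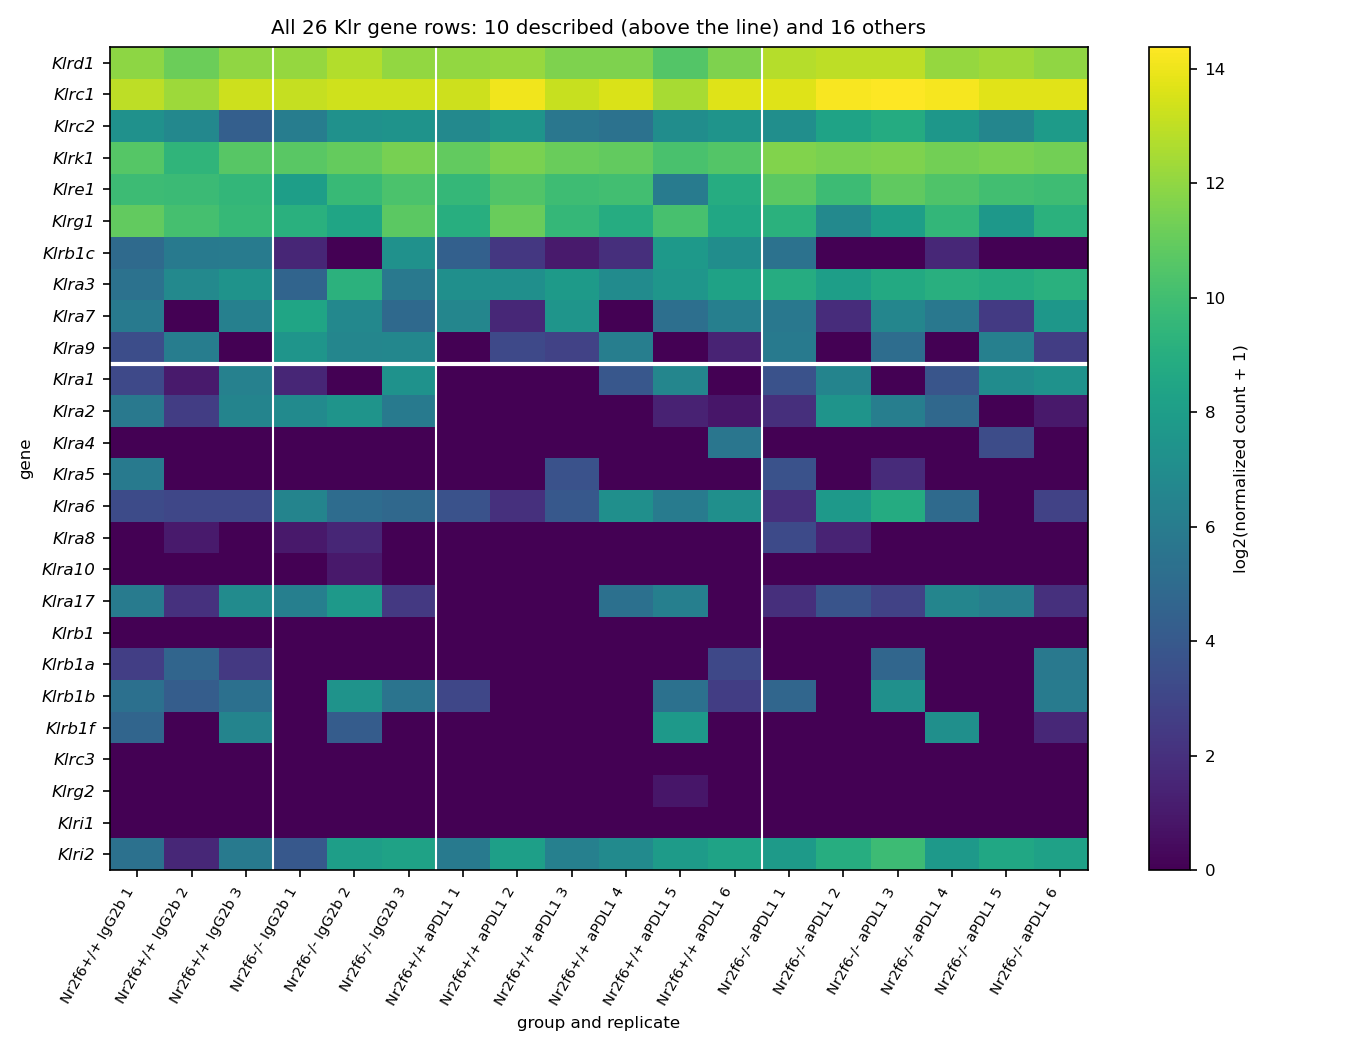
Colour map of the 26 Klr rows (the 10 described above the white line) in the 18 samples, as log2(normalized count + 1), with white lines between groups. Klrc1, Klrd1 and Klrk1 are high in every sample, whereas many Ly49 (Klra) and Klrb1 genes are at or near 0 in part of the samples.

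Of the partner molecules that pass on the signal of these receptors, 18 of 19 listed genes were tested. Fcer1g, the common Fc receptor chain, was the 1 called. It fell by 1.84 on the log2 scale with aPDL1 in wild-type (SE 0.34, limma adjusted p = 0.00927) and by 1.52 from Nr2f6+/+ IgG2b to Nr2f6-/- aPDL1 (SE 0.34, adjusted p = 0.0308), and was higher in Nr2f6-/- IgG2b than in Nr2f6+/+ aPDL1 by 1.65 (adjusted p = 0.017). Its levels were 2187 to 2437 and 1672 to 2215 in the IgG2b groups and 434 to 1016 and 415 to 1507 in the aPDL1 groups. Tyrobp (DAP12), the adaptor of NKG2C, read 612 to 1089, 538 to 926, 15.3 to 553 and 2.0 to 288 in the 4 groups, a log2 difference of -3.60 between Nr2f6-/- aPDL1 and Nr2f6+/+ IgG2b (SE 1.04, adjusted p = 0.122). Macrophages carry both adaptors too, and the part of the macrophage markers, which were lower in the same groups, was not tested. Hcst (DAP10), the adaptor of NKG2D, read 5733 to 15774 over all samples and differed by 0.19 between the genotypes under aPDL1 (SE 0.18, adjusted p = 0.774).

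Of the ligands, 8 of 18 listed genes were tested and 0 were called. H2-T23, coding for Qa-1, the ligand of CD94/NKG2A, differed by -0.48 (SE 0.39, limma adjusted p = 0.726) between the genotypes under aPDL1. It followed the library set: the aPDL1 samples read 1056 to 4098 normalized counts in the first and 4106 to 6373 in the second set, which was higher by 1.65 (SE 0.23, adjusted p = 0.00137). Clec2i, a ligand of NKR-P1 receptors, differed by -3.45 (SE 1.25, adjusted p = 0.348) and Ulbp1, a ligand of NKG2D, by -0.53 (SE 1.40, adjusted p = 0.931) between the genotypes under aPDL1. For Cdh1, the E-cadherin bound by KLRG1, the value was 0.12 (adjusted p = 0.983) and for Clec2d, a further ligand of NKR-P1 receptors, -0.14 (adjusted p = 0.981).

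Of the regulators linked to these receptors, 14 of 15 were tested and Tcf7, coding for TCF-1 of naive and memory-like T cells, was the 1 called. It read 3734 to 5137 normalized counts in Nr2f6+/+ IgG2b, 2173 to 2977 in Nr2f6-/- IgG2b, 1046 to 2350 in Nr2f6+/+ aPDL1 and 1214 to 1694 in Nr2f6-/- aPDL1. Nr2f6+/+ IgG2b was above the other 3 groups in every sample. Tcf7 fell by 1.45 with aPDL1 in wild-type (SE 0.26, limma adjusted p = 0.00912) and by 1.49 from Nr2f6+/+ IgG2b to Nr2f6-/- aPDL1 (SE 0.26, adjusted p = 0.00618).

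The markers of other cells that carry these receptors were mixed. Ncr1, the NK receptor NKp46, was at 0 in 14 of 18 samples and at most 83.4 normalized counts, and Klra4 and Klra8, further Ly49 genes of NK cells, were at 0 in 16 and 13. The whole NK list (17 genes in the table, among them Gzma, Eomes and Fcer1g, which activated T cells or macrophages also carry) summed to 5913 to 9280, 6993 to 8202, 4875 to 8150 and 7225 to 9840 in Nr2f6+/+ IgG2b, Nr2f6-/- IgG2b, Nr2f6+/+ aPDL1 and Nr2f6-/- aPDL1. Of the NKT list, Zbtb16, the regulator of these cells, was at 0 in 17 samples, while Traj18, the joining segment of their invariant receptor, was present in all 18, at 397 to 664, 55.2 to 213, 381 to 1272 and 259 to 1085 in the same order of groups. Traj18 was lowest in the Nr2f6-/- IgG2b samples, without overlap with any other group. It rose with aPDL1 in Nr2f6-/- mice by 2.50 on the log2 scale (SE 0.48, limma adjusted p = 0.0124) and was lower in Nr2f6-/- IgG2b than in Nr2f6+/+ aPDL1 by a log2 difference of -2.62 (SE 0.48, adjusted p = 0.00597). Trdc, the delta chain of gamma delta T cells, read 1.80 to 273. The part of NK, NKT and gamma delta T cells in the values of the receptors was not tested.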

How the data were processed

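CD3+ TILs were profiled by QuantSeq 3′ mRNA sequencing on the Ion Torrent from 20 ng of RNA. Per the authors, Cutadapt and Trimmomatic served for trimming. Reads under 22 nt were discarded, and the authors aligned the rest to mm10 with STAR and the remainder with Bowtie2, kept the primary alignment of multi-mapping reads and counted genes with HTSeq (tool versions, annotation and strand setting not given in the sources used here). The deposited values are a signal, namely gene counts the authors divided by DESeq2 size factors (0.823 to 1.22). Dividing by the step of each library gave whole reads for 100% of values (tolerance 0.01). No molecular identifiers were used, so floors cover counting error only. 0 of 153 sample pairs were identical.

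The values were analysed as log2(normalized count + 1) for the 11992 genes (of 37236) that averaged 10 or more, with limma 3.58.1 in R 4.3.3 (4 group means, 18 samples, moderated test with trend, Benjamini-Hochberg adjustment over all genes, threshold 0.05, two-sided). Log2 differences of low genes depend on the pseudocount and on samples at or near 0. They can be smaller or larger than the change of the group means. For Klra3 with aPDL1 in Nr2f6-/- mice limma gave 2.23 and DESeq2 0.99. DESeq2 1.42.0 and edgeR 4.0.16 (quasi-likelihood) on the recovered reads, other pseudocounts, filters, scalings, sample weights, library sets and leaving out each replicate were the alternatives. The scripts were tested on simulated data. Samples were grouped by their labels. The paper gives the group sizes of its RNA sequencing as tumor-bearing mice, with fewer per aPDL1 group than the 6 samples here. The sample labels do not say whether each sample is 1 mouse, so p-values measure the spread between these samples.

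Named were all 10 members, from lists of other Klr genes, signalling partners, ligands and regulators every gene past the threshold, with Hcst, Tyrobp, H2-T23, Cdh1 and Clec2d in any case, otherwise the 2 per list with the largest difference between genotypes under aPDL1, the 5 genes most like each member with a mean of at least 50, and Cd8a, Cd4, Cd3e and Nr2f6. The members and lists were chosen with earlier results of these data known. Positions come from the GRCm38 annotation and promoters from RefSeq (GRCm38.p6).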

Additional observations from a re-analysis of the deposited data

Results flagged for a closer look

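The 10 receptors in the groups of 6 samples formed 20 sets of values. Each was searched for a sample far from the others by Dixon's criterion (gap over range above 0.625), and 2 were found. Chance gives about 1 in 20 where values are normally distributed. Both were found in genes with samples at 0, so that rate does not hold for them. Klrb1c read 41.8 normalized counts in Nr2f6-/- aPDL1 replicate 1 and 0 to 2.0 in the other 5 samples of that group. Klra9 read 69.6 normalized counts in Nr2f6+/+ aPDL1 replicate 4 and 0 to 8.16 in the other 5. Both genes share 3′ sequence with relatives (11.6% and 49.0% of 50-base words), and the part of shared reads in these values was not tested.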

How the results depend on the processing

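For genotype under aPDL1, 0 members were called by limma, 1 (Klrd1) with the library set as a covariate, with the replicate block or with DESeq2, and 6 at an unadjusted p under 0.05. Between Nr2f6-/- aPDL1 and Nr2f6+/+ IgG2b the count of 2 became 0 without the filter on low genes and with edgeR, 1 with only the compared groups fitted (Klrk1) or with the first library set alone (Klrd1), 5 with sample weights (Klrk1, Klrc1, Klrd1, Klrg1 and Klra3) and 6 unadjusted, and ranged from 0 to 2 when 1 replicate was left out. It was 3, Klrd1 joining Klrk1 and Klrc1, with the set as a covariate or with the replicate block. Unadjusted counts were 1 for genotype under IgG2b, 2 for aPDL1 in wild-type, 3 for aPDL1 in Nr2f6-/- mice and 2 for Nr2f6-/- IgG2b against Nr2f6+/+ aPDL1, where limma called 0. Leaving out 1 replicate gave 0 to 1 for aPDL1 in Nr2f6-/- mice. Relative to Cd8a, the count under aPDL1 moved from 0 to 1 (Klrg1) with a pseudocount of 10 and with a mean of at least 50, and with a replicate left out ranged from 0 to 1, as did that between Nr2f6-/- aPDL1 and Nr2f6+/+ IgG2b. Over all genes, limma called 21 under aPDL1, against 184 with DESeq2, 34 and 0 with the first and second set alone, 9 without the filter, 4 with only the compared groups and 9 to 27 with a replicate left out. Between Nr2f6-/- aPDL1 and Nr2f6+/+ IgG2b it called 74, against 300 with sample weights, 177 with DESeq2, 116 with a pseudocount of 10, 41 with edgeR and 10 to 68 with a replicate left out. With all replicates kept, the count of 29 for aPDL1 in wild-type ran from 12 with the set as a covariate or the replicate block to 94 with DESeq2, that of 39 for aPDL1 in Nr2f6-/- mice from 8 with the first set alone to 230 with DESeq2, and that of 55 for Nr2f6-/- IgG2b against Nr2f6+/+ aPDL1 from 16 with the replicate block to 281 with DESeq2. The counts of 0 for genotype under IgG2b and for the difference of effects were 88 and 76 with DESeq2. The causes were not tested.

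No log2 difference of a member that was called changed sign under the alternatives run. Klrd1 under aPDL1 stayed between 0.73 and 1.05 when replicates were left out (adjusted p = 0.0614 to 0.259) and had an adjusted p of 0.381 without the filter. Same-numbered samples did not deviate together over all genes tested (21 pairs, r = -0.029 to 0.037). The labels do not say what the numbers mean, and such correlations cannot show that no samples were paired. Apart from the counts given above, the replicate block moved no count of members called. Depth limits Klrb1c, Klra7 and Klra9, which were at or under the floor of 3 reads in part of the samples. The alternatives were run for the 10 members and not for Klri2, Fcer1g, Tcf7 or H2-T23.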
